A study of Olea europaea with 6 samples.

Results

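Olive leaves harvested in November were compared with olive leaves harvested in July, over an on (bearing) year and an off (non-bearing) year together. All 7 leaf arrays of the 11 arrays in the series entered the comparison, and the other 4 were fruit arrays. The November leaves, called mature, comprised 2 arrays of the off year (OFF-M) and 1 array of the on year (ON-M). The July leaves, called juvenile, comprised 2 arrays of the off year (OFF-J) and 2 arrays of the on year (ON-J). The leaves came from neighbouring trees of the olive (Olea europaea) cultivar Ayvalık, with the fruited leaves taken in one year and the unfruited leaves in the next. Bearing year, calendar year and tree are therefore the same split of the arrays and cannot be told apart. The study described its samples as biological duplicates, whereas ON-M had 1 array here, and nothing stated that the duplicates came from separate trees. The p-values therefore reflect how far these arrays vary, and precision is limited by their small number. Variation between duplicates can be technical alone, and the comparison over both years also counts disagreement between the years as variation. ON-M was taken to vary as the other groups did. In bulk leaf tissue, fewer cells of a type and less RNA per cell cannot be told apart.

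The olive is an evergreen, and a leaf that opens in spring expands, builds its wall and its waxy cuticle, and later hardens and turns to storing and exporting carbon. July leaves meet heat and drought under long days, and November leaves meet cooler and shorter days. A heavy crop in one season is commonly followed by a light one, the alternate bearing that the study addressed, and leaves supply the sugars that fruits and buds draw on.

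Each array measured RNA by one-colour hybridization of Cy3-labelled cDNA. It carried 5543 probe sets designed on olive ESTs (expressed sequence tags, short reads of cDNA) and 49072 designed on poplar (Populus trichocarpa) gene models. EST names beginning with GO are sequence names and have no link to the Gene Ontology. Values are log2 signals after RMA, so that a difference of 1 is a doubling. Calls required a Benjamini-Hochberg adjusted p under 0.05 from limma (two-sided, over 54615 probe sets, bearing year as a covariate) and a November minus July log2 difference of 1 or more in size. Process names are those that the study assigned to transcripts it had selected as differing in these same leaves, so a count of called transcripts in a named group is not independent evidence. Of the 708 transcripts in the study's tables that were on the array, 33 were called higher (4.66%) and 43 lower (6.07%), with a median difference of -0.65, or 0.18 without the ON-M array. The counts of the annotation lists, all drawn from these 708, are to be read against those shares. The 708 include a block of 97 carbohydrate ESTs, described below, whose differences all lay above 0. That block raises the medians of the 708 and the share that rose in the off year. With no call over both years, it lowers the shares called there. The median olive signal was 11.34 and 11.40 on the OFF-M arrays and 10.66 on the ON-M array, against 11.11 and 10.80 in OFF-J and 11.21 and 11.43 in ON-J. The ON-M array had thus the lowest olive median of the leaf arrays, and leaving it out leaves the off year alone. Poplar medians lay between 5.78 and 5.85, and the random control sequence between 5.20 and 5.27.

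The leaf arrays were first set against transcripts of photosynthesis and of the study's fruit comparison. No independent leaf marker was annotated for these probe sets. The 13 transcripts annotated with photosynthesis or chlorophyll had medians of 8.43, 8.32 and 9.02 on the November arrays and of 8.80, 9.01, 9.30 and 7.50 on the July arrays, against 6.5 and 6.31 on the ripe and 7.42 and 7.12 on the unripe fruit arrays. The transcripts that the study tabulated as differing between fruits did not separate leaf from fruit as a group. Of the 7 brighter in unripe fruit, GO244680_1 gave 14.24 to 14.33 in November leaves and 14.19 to 14.30 in July leaves, against a mean of 13.50 in unripe fruit. GO243351_1 gave 12.69 to 13.09 in November leaves and 13.09 to 13.22 in July leaves, against 13.10 in unripe fruit. GO246036_1 gave 9.03 to 11.14 in November leaves and 12.28 to 12.73 in July leaves, against 12.78 in unripe fruit, and its difference of -2.34 was just outside the threshold (adjusted p = 0.0542). These 3 were thus bright in leaves. The other 4, GO244977_1, GO244976_1, FL684196_1 and GO246141_1, stayed lower, and the highest leaf value among them was 8.59 for GO244976_1, against 13.92 in unripe fruit. Of the 8 brighter in ripe fruit, FL683529_1 gave 5.73 to 7.52 in November leaves and 6.15 to 6.87 in July leaves, against 15.13 in ripe fruit. FL683787_1 gave 10.12 and 10.01 in OFF-M and 4.65 in ON-M, against 3.96 to 6.35 in July leaves, and averaged 13.59 in ripe fruit. It was the exception, since the other 7 reached at most 8.70 on any leaf array. None of the 15 was called between the months.

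November and July leaves differed in 147 transcripts (0.269% of those tested), of which 74 were higher (0.135%) and 73 lower (0.134%) in November. Olive ESTs made up 115 of the 147, namely 49 higher (0.884% of olive ESTs) and 66 lower (1.19%, in all 2.07%). Poplar gene models made up the other 32, namely 25 higher (0.0509% of poplar models) and 7 lower (0.0143%, in all 0.0652%). Without adjustment, 3947 transcripts had a limma p under 0.05. A log2 difference of 2 or more in size was reached by 54 of the 147, 24 higher (0.0439%) and 30 lower (0.0549%). Of these 17 (0.307%) and 29 (0.523%) were olive ESTs, and 7 (0.0143%) and 1 (0.00204%) were poplar models. All November arrays lay on one side of all July arrays in each of the 147, which the call on the same 7 arrays largely fixes and which is no support for it. This arrangement was found in 9.35% of all transcripts (5.5% higher and 3.85% lower), in 28.0% of olive ESTs (13.7% and 14.3%) and in 7.24% of poplar models (4.57% and 2.67%). The number of calls depended on single arrays. It was 2 and 5 without the first and second OFF-M array, 498 without the ON-M array (which leaves the off year alone), 1 and 25 without the first and second OFF-J array, and 11 and 27 without the first and second ON-J array. Only GO245535_1 was called in all 7 of these fits.

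GO245535_1, annotated with response to karrikin (karrikins are smoke compounds that promote germination), had the largest increase among the olive ESTs called. It reached 13.40 and 13.59 in OFF-M and 13.65 in ON-M, against 9.48 and 8.79 in OFF-J and 9.65 and 10.06 in ON-J. The lowest November array stood well above the highest July array, and the difference was 4.13 ± 0.24 (SE), or 17.5-fold, with an adjusted p of 0.00446. FN997782_1, which carries the same annotation, gave 12.32, 12.22 and 12.07 in November leaves and 8.95, 8.40, 9.24 and 9.84 in July leaves. Its November arrays lay closer together than its July arrays, and the difference was 3.17 ± 0.29 (adjusted p = 0.0134). The 11 transcripts annotated with karrikin response did not move as one, since 2 rose and 3 fell, where 4.66% and 6.07% of the 708 tabulated transcripts did.

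GO245913_1, annotated with meristem growth and carbohydrate metabolism, was measured at 12.08 and 12.25 in OFF-M and 11.10 in ON-M, against 7.47 and 7.02 in OFF-J and 8.23 and 8.32 in ON-J. The difference was 4.08 ± 0.40 (adjusted p = 0.0164). Both called ESTs whose only annotation is proteolysis, the cutting of proteins, rose. GO243651_1 gave 14.07, 13.82 and 13.45 in November leaves, against 9.67, 8.77, 10.50 and 10.58 in July leaves, a difference of 4.00 ± 0.39 (adjusted p = 0.0164). GO244795_1 gave 14.84, 14.86 and 14.65 in November leaves, against 12.02, 11.83, 12.28 and 12.80 in July leaves, a difference of 2.60 ± 0.24 (adjusted p = 0.0134). In both, the July arrays spread more widely than the November arrays.

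The oxidoreductase-annotated FL684059_1 gave 12.78, 12.76 and 12.62 in November leaves and 9.38, 8.69, 9.96 and 10.10 in July leaves, a difference of 3.28 ± 0.28 (adjusted p = 0.0114). GO244789_1, with no process assigned, gave 12.57, 12.44 and 12.77 in November leaves, against 9.56, 8.55, 9.81 and 10.05 in July leaves, a difference of 3.21 ± 0.27 (adjusted p = 0.011). GO245644_1 is annotated with alkaloid metabolism and with salicylic acid signalling, the hormone route of systemic acquired resistance. It gave 12.09 and 12.29 in OFF-M but 10.61 in ON-M, against 8.09 to 9.15 in July leaves, and its adjusted p (0.0464) was close to the threshold. FN998369_1, of unknown process, had a similar order of arrays, with 9.28 and 9.23 in OFF-M, 7.71 in ON-M and 5.41 to 6.17 in July leaves. GO243444_1, of unknown process and chosen after its values were seen, shared the smallest adjusted p (0.00446), with a mean of 14.93 ± 0.10 in November leaves and 12.37 ± 0.12 in July leaves (SD, n = 3 and 4). GO243458_1, annotated with regulation of transcription and cell growth, rose by 2.43 in the on year and by 2.47 in the off year.

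**Figure D1:**
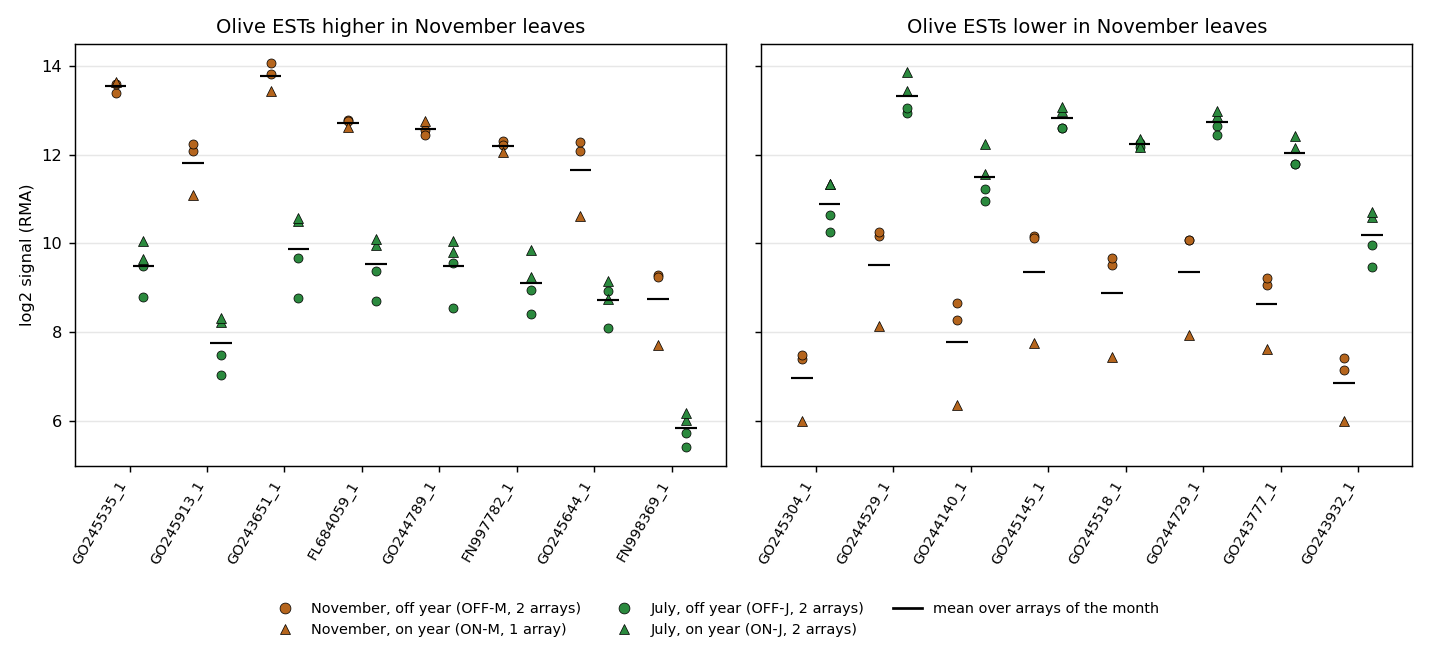
Log2 signal on each of the 7 leaf arrays for the 8 olive ESTs with the largest increase (left panel) and the 8 with the largest decrease (right panel) among those called. For each EST the November arrays stand left of the July arrays, circles are off-year and triangles on-year arrays, and bars are means over the arrays of a month. No November array overlaps a July array, and the ON-M triangle is the lowest November point in all 8 ESTs of the right panel.

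Among the ESTs that fell, GO245304_1, annotated with karrikin response and syncytium formation (the fusion of neighbouring cells), had the largest decrease. It gave 7.39 and 7.47 in OFF-M and 6.00 in ON-M, against 10.63 and 10.26 in OFF-J and 11.35 and 11.35 in ON-J. The difference was -3.95 ± 0.43 (adjusted p = 0.0195). GO244529_1, of unknown process, gave 10.16, 10.25 and 8.13 in November leaves and 12.94, 13.06, 13.43 and 13.86 in July leaves, a difference of -3.88 ± 0.50 (adjusted p = 0.0323). GO244140_1, annotated with fatty acid metabolism, oxidation-reduction and defense, gave 8.28, 8.65 and 6.36 in November leaves, against 11.23, 10.95, 11.57 and 12.25 in July leaves, a difference of -3.79 ± 0.55 (adjusted p = 0.0457). In all 3 the on-year array was the lowest of the November arrays.

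The decreases with the smallest adjusted p were those of FL683438_1, FL684184_1 and GO243581_1. FL683438_1, of unknown process, gave 10.29, 10.55 and 9.82 in November leaves and 13.12, 13.01, 13.25 and 13.26 in July leaves, a difference of -2.96 ± 0.21 (adjusted p = 0.00689). FL684184_1, annotated with protein folding and heat acclimation, gave 10.34, 10.68 and 10.01 in November leaves, against 13.20, 13.11, 13.35 and 13.62 in July leaves, a difference of -2.98 ± 0.23 (adjusted p = 0.00689). Each of these 2 was called in 5 of the 7 fits that left out an array. GO243581_1, of unknown process and chosen after its values were seen, gave 11.18, 11.11 and 11.02 in November leaves and 13.10, 13.14, 13.12 and 13.23 in July leaves, a difference of -2.05 ± 0.16 (adjusted p = 0.00689).

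All 147 called transcripts had the same direction in both years, which follows from a call that required a month difference common to both. The on-year and off-year changes do not share arrays. Over all olive ESTs the sign was shared by 50.2%, and the yearly differences correlated with r = 0.29 across 5543 ESTs, which are not independent replicates. Of the 49 olive ESTs called higher, 18 were also called when the on year was tested by itself, 43 when the off year was, and 17 in both tests, which use the arrays of the call. Of the 66 called lower, 53 were called in the on year, 52 in the off year and 46 in both. Tested by year, 485 transcripts passed in the on year (0.888%), of which 78 rose (0.143%) and 407 fell (0.745%). In the off year 498 passed (0.912%), of which 366 rose (0.67%) and 132 fell (0.242%). Olive ESTs contributed 24 that rose (0.433%) and 373 that fell (6.73%, in all 7.16%) to the on-year calls. To the off-year calls they contributed 308 that rose (5.56%) and 87 that fell (1.57%, in all 7.13%). Poplar models were called in 0.11% (higher) and 0.0693% (lower) in the on year, in all 0.179%, and in 0.118% and 0.0917% in the off year, in all 0.21%. The on-year difference lay below the off-year difference in 59 of the 66 ESTs that fell (89.4%), in 42 of the 49 that rose (85.7%) and in 73.8% of all olive ESTs. The median difference of the 66 was -2.51 in the on year and -1.58 in the off year.

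**Figure D2:**
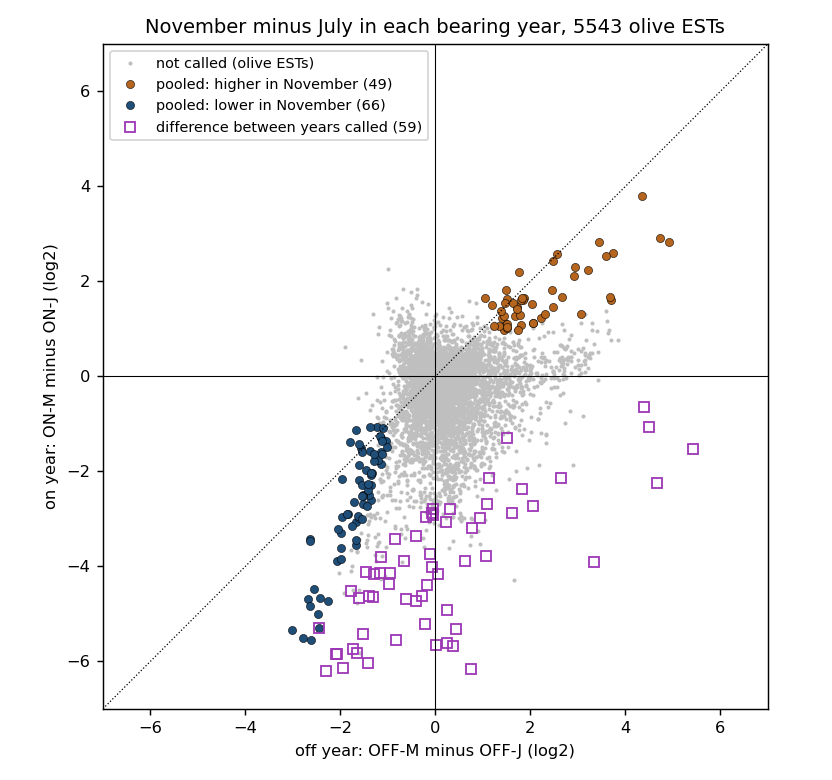
November minus July log2 difference of 5543 olive ESTs in the off year (horizontal axis) and in the on year (vertical axis). Filled points are the 49 and 66 ESTs called over both years, open squares the 59 ESTs whose change differed between years, and the dotted line marks equal change. ESTs called over both years lie at the upper right or lower left, and most points lie below the dotted line.

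Cell wall and surface transcripts were among the largest decreases. Walls are built while a leaf expands, and the cuticle of cutin and wax seals its epidermis. GO245145_1 and GO244729_1, both annotated with cell wall biogenesis and the shaping of trichomes (leaf hairs), changed by -3.59 and -3.49 on the log2 scale. GO245145_1 gave 10.17, 10.12 and 7.75 in November leaves and 12.61, 12.60, 12.99 and 13.09 in July leaves. GO244729_1 gave 10.08, 10.07 and 7.93 in November leaves, against 12.66, 12.44, 12.88 and 13.00 in July leaves. GO245518_1 and GO245517_1, annotated with control of secondary wall biogenesis and with abscisic acid response, fell by 3.51 and 3.32. GO245518_1 gave 9.52, 9.67 and 7.44 in November leaves and 12.18 to 12.36 in July leaves, so that the July arrays lay close together. Whether the members of each pair stand for 1 transcript could not be examined without their sequences. Of the 24 cell wall transcripts, 3 rose and 5 fell, where 4.66% and 6.07% of the 708 tabulated transcripts did. The list median was -0.97, or -0.12 without ON-M, against -0.65 and 0.18 for the 708. Those that rose were GO243501_1, whose terms include cellulose synthesis beside iron and copper transport, grail3.0001090401, whose terms include lignin synthesis and the hypersensitive response, and the trehalose-6-phosphate synthase model fgenesh4_pg.C_scaffold_9882000001.

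Of the 44 transcripts of lipid, wax and cutin metabolism, 6 fell and 1 rose (the methyltransferase model gw1.XII.30.1), and the median difference was -2.08, against -0.65 for the 708 tabulated transcripts and -0.02 for all olive ESTs. Without ON-M it was -1.25, against 0.18 for the 708 tabulated transcripts. The signs were uneven beyond the calls, with 38 of 44 differences below 0, against 432 of the 708. The 708 include the carbohydrate block of 97 ESTs, with none below 0. GO243362_1 and GO243584_1, both annotated with wax biosynthesis, salt stress and abscisic acid response, fell by 2.52 and 2.27. GO243362_1 gave 10.63, 10.80 and 9.32 in November leaves and 12.60 to 12.76 in July leaves. GO243678_1, annotated with cutin synthesis and the shaping of the epidermis, fell by 2.15. GO243991_1, annotated with fatty acid metabolism, had a larger difference (-3.87 ± 0.69) but was not called (adjusted p = 0.0934). It gave 9.73 and 10.10 in OFF-M and 6.56 in ON-M, against 12.17 to 13.00 in July leaves. Likewise GO243240_1, annotated with lipid metabolism, gave 11.21, 11.02 and 7.33 in November leaves and 13.02 to 13.48 in July leaves (adjusted p = 0.138). In the on year 34 of the 44 fell and 2 rose, where 44.2% and 6.36% of the 708 did. In the off year 16 fell and 3 rose, where 11.9% and 26.8% of the 708 did.

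Aquaporins are membrane channels for water. Of the 10 transcripts annotated with water transport, 3 fell and 1 rose, where 6.07% and 4.66% of the 708 tabulated transcripts did. GO244854_1 and GO244599_1, annotated with the transport of urea and water, fell by 2.73 and 2.64. GO244854_1 gave 10.13, 10.20 and 8.51 in November leaves, against 12.26, 12.05, 12.13 and 12.59 in July leaves. GO245690_1, annotated with water transport and abscisic acid response, fell by 2.28. The one that rose was GO243501_1 (2.08 ± 0.25), with 13.67, 13.75 and 13.11 in November leaves and 11.07 to 11.85 in July leaves. The list had a median of -1.84 over both years, against -0.65 for the 708. It was -3.19 in the on year, against -2.08, and -0.22 in the off year (that is, without ON-M), against 0.18.

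Chaperones help proteins to fold and are induced by heat. Of the 15 transcripts of protein folding, 5 fell and 2 rose, where 6.07% and 4.66% of the 708 tabulated transcripts did. The median was -1.80, or -0.75 without ON-M, against -0.65 and 0.18 for the 708. In the on year it was -2.73, against -2.08 for the 708. The 5 that fell were olive ESTs. Beside FL684184_1 they were FL683700_1 (-2.23), FL684306_1 (-2.16), GO244160_1 (-1.95) and FL684093_1 (-1.84). FL683700_1 gave 10.48, 10.70 and 9.57 in November leaves, against 12.38, 12.16, 12.51 and 12.77 in July leaves. FL683700_1, FL684093_1 and FL684306_1 carry the same annotation and may overlap in sequence. FL684170_1, annotated with folding and heat, had a difference of -2.88 but was not called (adjusted p = 0.112), and its November values of 4.24 to 4.90 were below the random control. The 2 that rose were poplar models, a protein similar to one of the alga Ostreococcus tauri (gw1.XI.1469.1, 2.49 ± 0.30) and a trigger factor type chaperone (gw1.XV.1199.1, 1.79 ± 0.26). The 5 olive ESTs are also 5 of the 7 that fell among the 32 transcripts of cold and heat, where 3 rose, and 5 of the 8 that fell among the 33 of light signals, where 1 rose. They supply 3 of the 4 that fell in flower development, so these counts are not separate results. Of all 420 transcripts in the lists, 137 stand in more than 1.

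**Figure D3:**
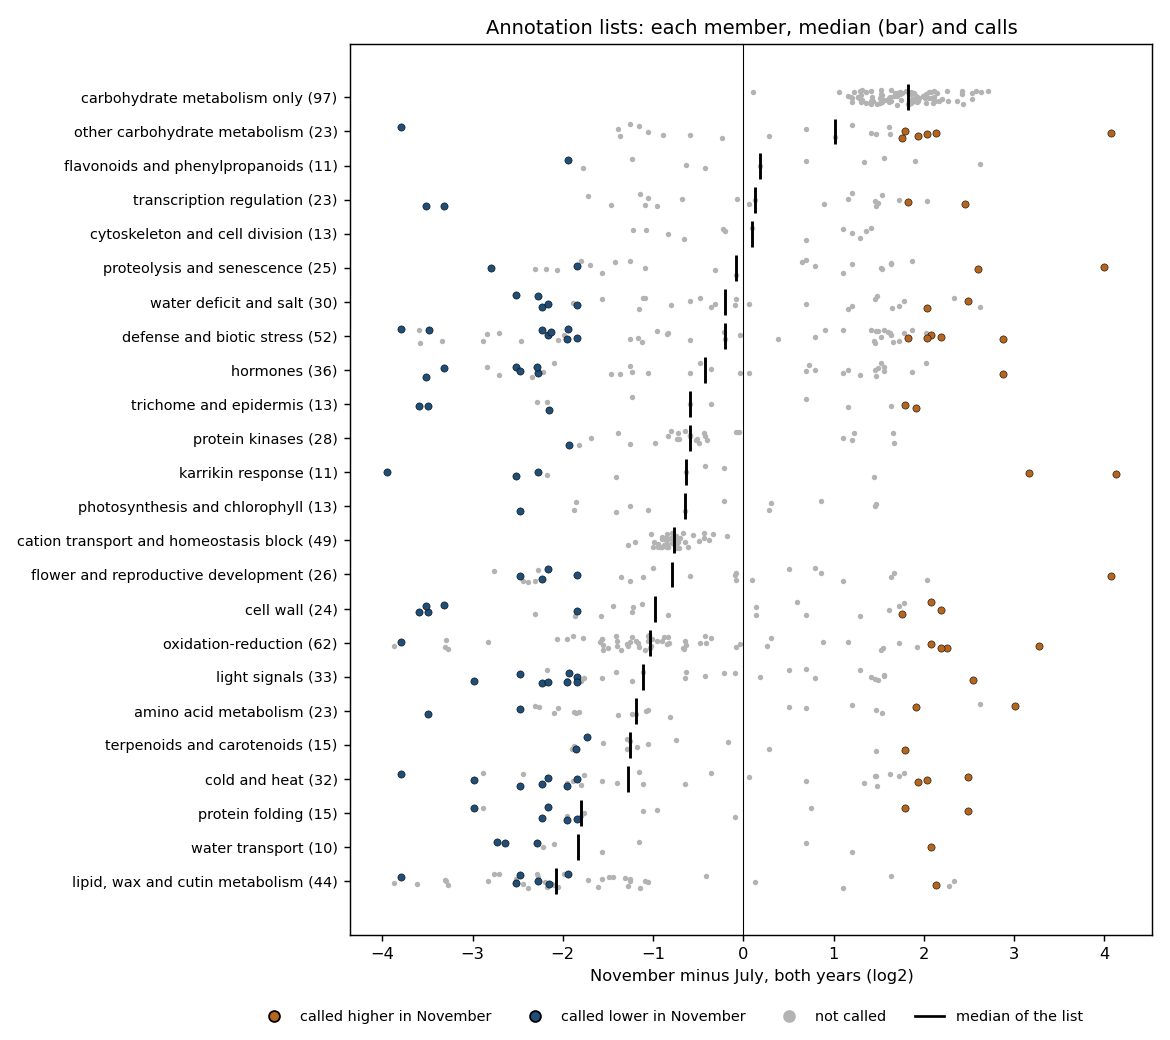
November minus July log2 difference over both years for every member of the 24 annotation lists, ordered by the list median (black bar), with the number of members in brackets. Coloured points were called. Medians run between -2.08 for lipid, wax and cutin metabolism and 1.82 for ESTs with carbohydrate metabolism as their only annotation. None of the 97 members of the latter was called in the fit shown, while members were called with group means and the years averaged.

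Of the carbohydrate transcripts called, most rose. Leaves build starch by day and break it into maltose and glucose by night. Of 23 transcripts of carbohydrate metabolism other than those described in the next paragraph, 6 rose and 1 fell, where 4.66% and 6.07% of the 708 tabulated transcripts did. The median was 1.02, or 0.43 without ON-M. GO245268_1, annotated with cold response, starch breakdown and maltose synthesis, gave 13.74 and 13.98 in OFF-M and 14.21 in ON-M, against 11.96, 12.23, 12.01 and 12.00 in July leaves. It rose by 1.94 ± 0.19 (adjusted p = 0.0164) with no overlap between the months. The model fgenesh4_pg.C_scaffold_9882000001, named for trehalose-6-phosphate synthase, which makes a sugar signal, gave 7.72, 8.03 and 7.72 in November leaves, against 5.69, 5.66, 6.57 and 6.68 in July leaves. The other 3 that rose beside GO245913_1 were poplar models named for a phosphoethanolamine methyltransferase, a trigger factor chaperone and an acidic endochitinase, which are not enzymes of starch. The one that fell was GO244140_1. Among the 13 olive members alone the median was -0.89, and after median centring of the arrays 2 of the 23 rose and 0 fell.

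A block of 97 olive ESTs had carbohydrate metabolic process as its only annotation. All but GO242798_1 have names in FN, those of the flower library. Whether they stand for separate transcripts could not be examined without their sequences, so their counts may repeat the same transcripts. None was called over both years by the fit with bearing year as a covariate, although all 97 differences were above 0, with a median of 1.82. That fit counts a difference between years as residual variation. With leaf group means and the years averaged the median was 1.56 and members were called, so the absence of calls depended on the fit. The block median was 11.02 and 11.27 on the OFF-M arrays and 9.85 on the ON-M array, against 8.78 and 7.95 in OFF-J and 9.32 and 9.86 in ON-J. The off-year medians of the months stood apart, whereas the ON-M median lay at the level of the higher ON-J median. In the on year none of the 97 was called in either direction and the median was 0.33, against -2.08 for the 708 tabulated transcripts. In the off year 96 of the 97 rose, where 5.56% of all olive ESTs and 26.8% of the 708 did. The off-year median was 2.72, against 0.18 for the 708. The block is part of the 708 and supplies 96 of their 190 off-year increases, so these baselines are not separate from it. FN997886_1 had the largest difference of the block (2.71 ± 0.46, adjusted p = 0.0797), with 9.89 and 10.00 in OFF-M, 8.75 in ON-M, 6.41 and 6.27 in OFF-J and 6.81 and 7.93 in ON-J. At a limma p without adjustment 95 of the 97 passed, at the methods' t-test 74 without adjustment and 0 after Benjamini-Hochberg adjustment, and with arrays centred on their olive medians 61 were called. The study listed 96 of the 97 as differing in the off-year leaves, so that year's count is not independent.

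A second block of 49 olive ESTs shares an annotation of monovalent cation and calcium transport. Whether these too stand for separate transcripts could not be examined. None was called over both years (1 at a limma p without adjustment, 0 at the methods' t-test), and all 49 differences were below 0, with a median of -0.77. Its medians were 7.27 and 7.31 on the OFF-M arrays and 5.23 on the ON-M array, against 7.29 and 6.45 in OFF-J and 7.80 and 7.93 in ON-J. The ON-M median was thus close to the random control, while OFF-M lay among the July arrays. In the on year 37 of the 49 fell, where 6.73% of olive ESTs and 44.2% of the 708 tabulated transcripts did. The on-year median was -2.45, against -2.08 for the 708. In the off year none was called in either direction, with a median of 0.33, against 0.18 for the 708. GO243043_1 illustrates the block, with 7.64 and 7.77 in OFF-M, 4.76 in ON-M and 7.25 to 8.78 in July leaves. Without the ON-M array, 45 of the 49 differences were above 0. The study listed 48 of the 49 as differing in the on-year leaves.

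**Figure D4:**
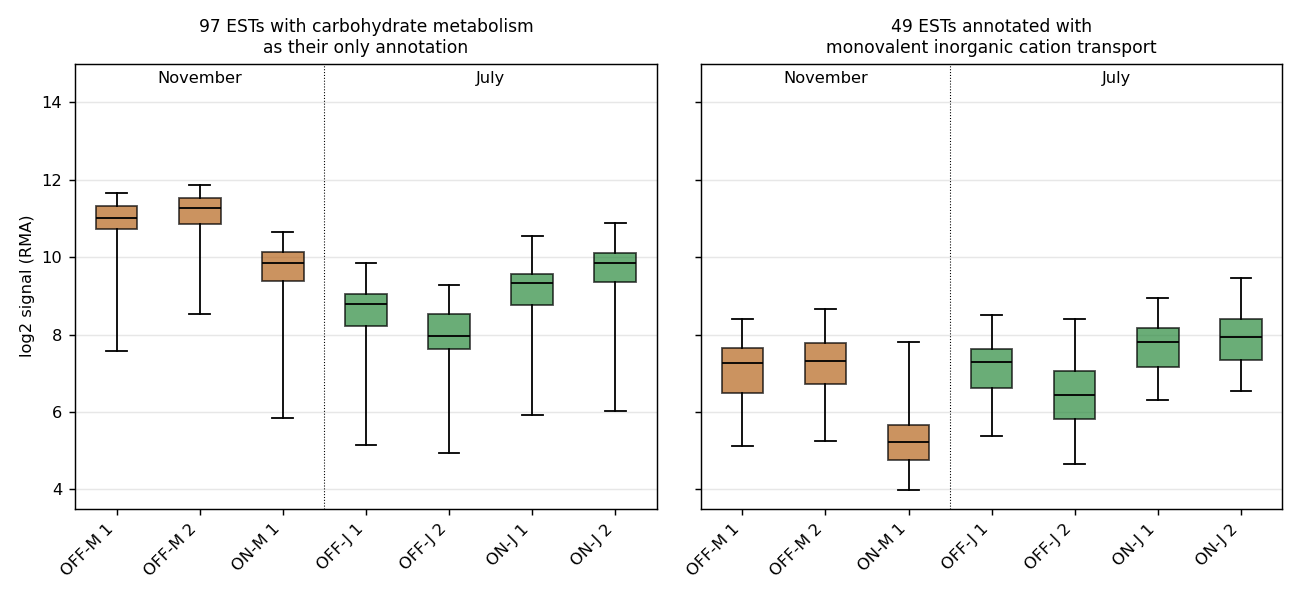
Log2 signal on each leaf array, November arrays left of July arrays, of the 97 ESTs annotated with carbohydrate metabolism alone and of the 49 ESTs of the cation transport block. Boxes span the quartiles with the median as a line, and whiskers reach the lowest and highest EST. The OFF-M boxes are the highest of the first block, and the ON-M box is the lowest of the second.

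Hormone and defense transcripts were called in both directions, where 4.66% of the 708 tabulated transcripts were called higher and 6.07% lower. Of 36 hormone transcripts 1 rose (GO245644_1) and 6 fell. Of 52 transcripts of defense and biotic stress 5 rose and 8 fell, with a median of -0.21. GO243777_1, annotated with type I hypersensitivity (an allergen term), gave 9.05, 9.21 and 7.61 in November leaves, against 11.80, 11.80, 12.42 and 12.16 in July leaves, and fell by 3.48. GO243211_1 and GO243814_1, annotated with defense and biotic stimulus, had differences of -3.59 and -3.58 without being called (adjusted p = 0.102 and 0.101). In GO243211_1 the OFF-M arrays gave 11.22 and 10.96 and the ON-M array 7.68, against 13.17 to 13.61 in July leaves.

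Photosynthesis and chlorophyll transcripts gave 1 call among 13. That one, eugene3.00101184, is named after CUT1 of Arabidopsis, a condensing enzyme for the very long fatty acids of cuticular wax, and chlorophyll is only 1 term of its long annotation. GO244424_1, annotated with light harvesting, had a difference of -1.85 ± 0.38 and was not called (adjusted p = 0.147). FL683725_1, annotated with chlorophyll and terpenoid synthesis, gave 14.26 and 14.31 in OFF-M and 10.10 in ON-M, against 14.31 to 14.67 in July leaves. The counts of the remaining lists are to be read beside the 4.66% higher and 6.07% lower of the 708 tabulated transcripts. Terpenoids and carotenoids had 1 higher and 2 lower of 15, and the lower ones were GO243666_1 and GO244544_1 of triterpenoid synthesis. Oxidation-reduction had 4 higher and 1 lower of 62, amino acid metabolism 2 and 2 of 23, and proteolysis and senescence 2 and 2 of 25. Transcription regulation had 2 and 2 of 23, water deficit and salt 2 and 5 of 30, and trichome and epidermis 2 and 3 of 13. Flavonoids had 0 and 1 of 11, protein kinases 0 and 1 of 28, flower development 1 and 4 of 26, and cytoskeleton and cell division none of 13, or 5 at a limma p without adjustment and 0 at the methods' t-test after adjustment.

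Most list medians differed when the ON-M array was left out. That leaves the off year alone, so this array and the on year cannot be told apart. Without ON-M the medians of 5 of the 24 lists changed sign, as did that of all olive ESTs (-0.02 over both years, 0.11 without ON-M). These were the cation block, transcription regulation (0.13 over both years, -0.32 without ON-M), protein kinases (-0.59 over both years, 0.34 without ON-M), amino acid metabolism (-1.19 and 0.24) and defense (-0.21 and 0.06). A further 17 medians kept their sign but moved by over 1.5 times. Those of flavonoids (0.18 over both years, 0.93 without ON-M), proteolysis and senescence (-0.08 and -0.37) and cytoskeleton (0.10 and 0.30) moved away from 0, and the others moved toward it. Among the others were oxidation-reduction (-1.04 and -0.05), terpenoids (-1.26 and -0.41), cold and heat (-1.28 and -0.69), light signals (-1.11 and -0.47), hormones (-0.42 and -0.22), karrikin response (-0.63 and -0.09) and photosynthesis (-0.65 and -0.20). Only the carbohydrate block and flower development (-0.79 and -0.59) moved by less. The medians of all 24 lists kept their sign when arrays were centred on their medians or olive medians, quantile-normalized again or freed of their brightness trend. The values were already quantile-normalized. Centring on olive medians moved the median of all transcripts over both years by only 0.01. The kept signs are therefore no support for the list medians.

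Poplar probes read olive RNA across species, so a poplar name is that of the probe and the olive transcript bound is not identified. The largest poplar increase was that of estExt_fgenesh4_pg.C_LG_II2533, named for tyrosine decarboxylase, which turns tyrosine into tyramine. It gave 11.73 and 12.14 in OFF-M and 12.22 in ON-M, against 9.06 and 9.05 in OFF-J and 8.89 and 9.17 in ON-J. The difference was 3.01 ± 0.19, or 8.03-fold (adjusted p = 0.00446), and it was 3.19 in the on year and 2.89 in the off year. It was called in 6 of the 7 fits that left out an array. The model eugene3.01650006, of the family of the pollen allergen Ole e 1, gave 7.64, 7.77 and 7.18 in November leaves. Its July values of 4.80 to 5.12 were below the random control, and the size of its difference (2.55 ± 0.20) is limited by that background. The model grail3.0001090401, named after the elicitor-activated gene ELI3-1, gave 10.72, 10.64 and 10.74 in November leaves, against 8.87, 8.63, 7.63 and 8.72 in July leaves, a difference of 2.19 ± 0.29 (adjusted p = 0.034).

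Of the 7 poplar models that fell, the CUT1 model eugene3.00101184 had the largest decrease. It gave 5.90, 6.13 and 5.15 in November leaves and 8.08, 8.57, 8.23 and 7.50 in July leaves, a difference of -2.47 ± 0.24 (adjusted p = 0.0164). Its direction was thus that of the olive wax ESTs GO243362_1 and GO243584_1. The other models named by the rule, eugene3.22230001 (-1.83), estExt_fgenesh4_pm.C_LG_II0638 (-1.56), eugene3.00040705 (-1.55) and gw1.623.7.1 (-1.52), had no annotation in the sources used here.

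**Figure D5:**
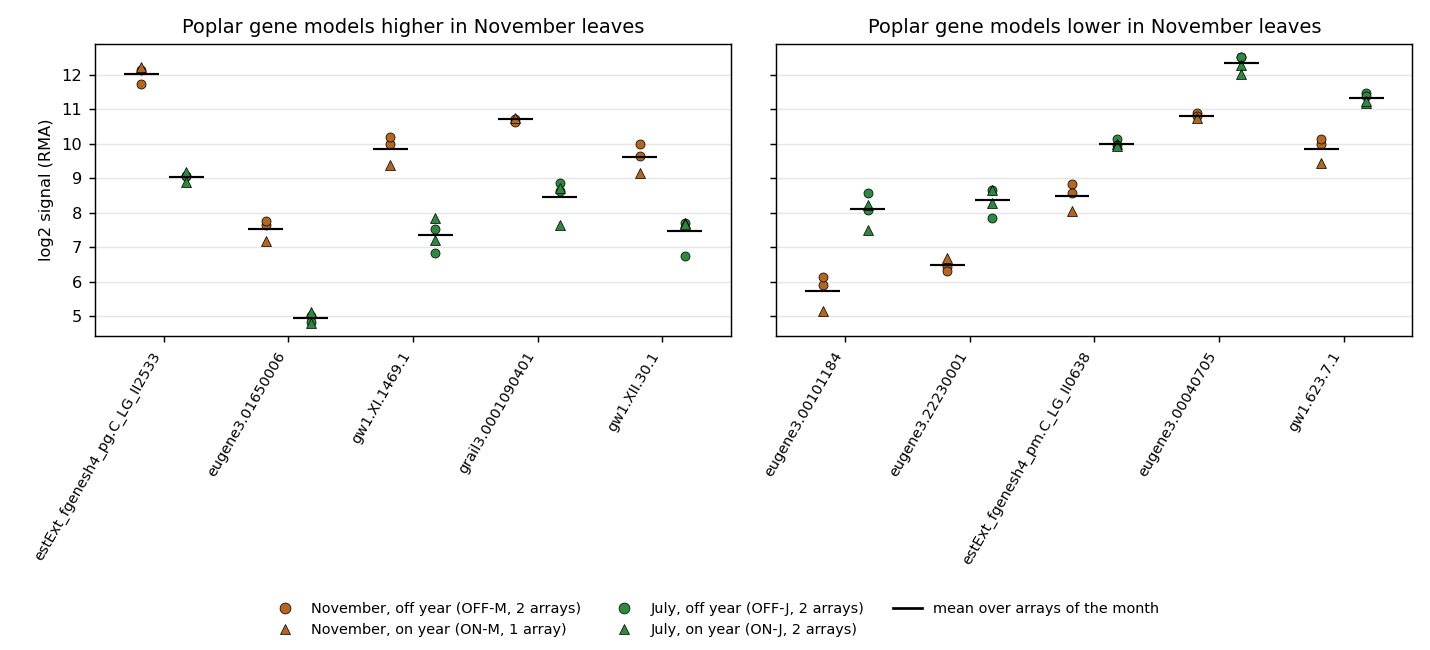
Log2 signal on each leaf array for the 5 poplar gene models with the largest increase and the 5 with the largest decrease among those called. Circles are off-year and triangles on-year arrays, bars are means, and November stands left of July. The 3 November arrays of the tyrosine decarboxylase model lie between 11.73 and 12.22, above its 4 July arrays at 8.89 to 9.17.

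The change between the months differed between years in 78 transcripts (0.143% of those tested), 60 with a negative difference (on-year change minus off-year change, 0.11%) and 18 with a positive one (0.033%). All 59 olive ESTs called were negative (1.06% of olive ESTs, against 0.0% positive), and of the 19 poplar models (0.0387%) 18 were positive (0.0367%) and 1 negative (0.00204%). The split changed with the scaling of the arrays. After each array was centred on its olive median, 17639 transcripts were positive and 397 negative, while the on-year calls became 1115 higher and 291 lower and the off-year calls 247 higher and 334 lower. That centring moved the median of all transcripts by 1.07 in the difference between years, by 0.66 in the on year and by -0.41 in the off year. By limma the count was 0 without the first OFF-M array, with 6847 transcripts at an unadjusted p under 0.05, and 0 without the second, with 5461. FL684126_1, annotated with flavonoid synthesis, gave 8.65 in ON-M, against 10.79 and 10.99 in ON-J, and 13.40 and 13.44 in OFF-M, against 9.16 and 8.36 in OFF-J. Its difference was thus -2.24 in the on year and 4.66 in the off year, and it was not called over both years (adjusted p = 0.899). GO243710_1, annotated with metabolic process, had differences of -3.91 in the on year and 3.34 in the off year. FL684392_1, of unknown process, gave 5.43 in ON-M, 11.91 and 11.79 in OFF-M and 10.92 to 11.76 in July leaves.

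Of the 59 olive ESTs, 25 had a negative on-year and a positive off-year difference, and the other 34 had negative differences in both years. Only GO245145_1 was both called over the 2 years and different between them, 1 of 147 and 1 of 78. The fit over both years counts a difference between years as residual variation. A small overlap was therefore set in advance and is not a result about these transcripts. In the poplar set, gw1.123.49.1, named for CONSTANS-LIKE 2, a relative of a flowering time regulator, gave 10.02 in ON-M and 4.88 to 5.39 on the other 6 arrays. The kinase model fgenesh4_pm.C_LG_IV000224 gave 10.84 in ON-M and 5.69 to 6.46 on the other 6. Both rest on 1 array.

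The fruit arrays took no part in the fit and share no array with the leaves. Unripe fruit was picked in July and ripe fruit in October, nearly the same split by season as that of the leaves. Season and ripening cannot be told apart in the fruit arrays. Among the 66 olive ESTs lower in November leaves, 49 (74.2%) were lower by at least 1 in ripe than in unripe fruit and 4 (6.06%) higher, against 29.5% and 16.0% of all olive ESTs. Among the 49 higher in November leaves, 13 (26.5%) were higher and 9 (18.4%) lower in ripe fruit. GO243798_1, annotated with cuticle development and not called in leaves (-2.18, adjusted p = 0.0756), averaged 6.54 in ripe and 13.73 in unripe fruit, and GO245304_1 averaged 5.67 in ripe and 11.29 in unripe fruit. The karrikin-annotated GO245535_1, which rose in leaves, averaged 6.85 in ripe fruit and 10.62 in unripe fruit. The ripe fruit arrays had olive medians of 9.83 and 10.22, lower than the 11.04 of both unripe fruit arrays, and their part in these shares was not tested. In unripe fruit the median level was 12.97 for the 66 ESTs and 11.93 for the 49. The shares of all olive ESTs were not matched for signal level, and dim ESTs have less room to fall.

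The ESTs come from several libraries. Those described as from leaves and fruits (names in GO, 3706 ESTs) gave 35 higher (0.944%) and 49 lower (1.32%). Those from fruitlets of the cultivar Leccino (names in FL, 1021 ESTs) gave 9 higher (0.881%) and 14 lower (1.37%), and those from flowers (names in FN, 757 ESTs) 5 higher (0.661%) and 1 lower (0.132%). Among the 147 transcripts, 71 were in no table of the study, and no process is given for them here. Of the 36 transcripts that the study listed as differing in both years, 13 were called higher and 16 lower, and 32 had the same direction in both years. That list was chosen on these samples.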

How the data were processed

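RNA of the 7 leaf arrays and 4 fruit arrays was labelled with Cy3 and hybridized to a custom one-colour NimbleGen array. The authors quantified the scans in DEVA, subtracted background, normalized across arrays by quantiles and summarized probes by RMA, and deposited log2 values per transcript. RMA is also named in the submitters' processing notes, and its version is not given in the sources used here. An averaged table of the deposited log2 values equalled the array means (largest deviation 1.8e-15) and served as a check only. Values deposited this way are relative to the other arrays, so a shift shared by most transcripts of an array is partly removed.

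Of 54616 probe sets 1 random control was left out of the tests and used as a background level. Differences were fitted with limma 3.58.1 in R 4.3.3 on the 7 leaf arrays with month and bearing year (4 residual degrees of freedom, prior 4.23), which weights the on-year difference 0.4 and the off-year difference 0.6. The yearly differences and the difference between years came from group means (3 residual degrees of freedom, prior 4.17). P-values were adjusted by Benjamini-Hochberg over 54615 probe sets. Tables and plots used Python 3.11.15, pandas 2.3.3, numpy 2.4.6 and matplotlib 3.10.9. The fits were tested on simulated data.

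Process names and descriptions came from tables of the study, which annotate 712 transcripts. Of these 708 were on the array and 467 had a named process. The 24 lists were built from these terms. The members and lists were chosen with earlier results of these data known. No probe set ID matched the RefSeq gene table, and sequences were not used here. Named transcripts were, among those called without overlap between months, the 8 olive ESTs with the largest difference in each direction, the 8 with a named process and the 5 poplar models in each direction. Added to these were GO245535_1, FL683438_1 and FL684126_1, and up to 4 members of each list with the largest difference. The 4 olive ESTs with the largest negative difference between years were also named. No olive EST had a positive difference between years at an adjusted p under 0.05 (limma). The 4 positive ones with the smallest limma p were therefore taken. Transcripts named in the text to make up a list's called members, the fruit transcripts, GO243444_1 and GO243581_1 fall outside that rule and were chosen after their values were seen.

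Replicate numbers were not taken to pair the arrays. The alternatives were other fits (all 11 arrays, group means with years averaged, no year term, replicate block, trend and robust prior), the methods' t-test, other thresholds, a mean log2 value of at least 6, rescaling by medians, olive medians, quantiles or a lowess brightness trend (span 0.3), and leaving out each array. A fit on olive probe sets alone was added after seeing the data.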

Additional observations from a re-analysis of the deposited data

Results flagged for a closer look

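Among the 92 named transcripts, 16 changed differently between months in the on and off years by the interaction test in limma (on-year change minus off-year change, adjusted p under 0.05). The differences were -7.25 for GO243710_1, -6.95 for FL683787_1, -6.92 for FL684392_1, -6.9 for the flavonoid EST FL684126_1, -4.98 for the water transport EST GO244165_1 and -4.22 for the chlorophyll EST FL683725_1. The lipid ESTs GO243240_1, GO243363_1 and GO243991_1 gave -4.2, -4.18 and -3.91, and the defense ESTs GO243211_1 and GO243814_1 gave -3.77 and -3.76. GO246421_1 of the hormone list gave -3.06, GO243632_1 of the flower list gave -2.88 and the cell wall EST GO245145_1 gave -2.84. The poplar models gw1.123.49.1 and fgenesh4_pm.C_LG_IV000224 gave 5.06 and 4.95. All 16 rest on the single ON-M array, which had the lowest olive median of the leaf arrays (10.66), and its part in them was not tested.

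In gw1.XII.30.1, named for a phosphoethanolamine methyltransferase, the second OFF-J array (6.75) stood apart from the other July arrays (7.67 to 7.71). Chance alone sets about 1 in 20 groups of 4 apart by this measure, and the July arrays of 92 transcripts were looked at.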

How the results depend on the processing

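The 147 calls between the months became 588 with leaf group means and the years averaged, 552 with group means over all 11 arrays, 221 without the year term, 242 with the trend and robust prior, 267 after centring on olive medians and 54 at a difference of at least 2. They became 833 with limma without adjustment, and by the methods' t-test 641 without adjustment and 26 after Benjamini-Hochberg adjustment. The fit on olive probe sets alone, chosen after seeing the data, called 256. With all 11 arrays, no minimum difference, a mean of at least 6, median centring, quantile normalization or the brightness trend removed, the count lay between 107 and 220. Leaving out single arrays gave 1 (first OFF-J array) to 498 (ON-M array).

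The 485 on-year calls became 3052 without adjustment, 854 at a mean of at least 6 and 1406 (79.3% higher, against 16.1%) after centring on olive medians, and 183 to 526 without single arrays. The 498 off-year calls became 1742 without adjustment, 219 at a difference of at least 2 and 902 at a mean of at least 6, and 0 (without the first OFF-M array, with 4675 at an unadjusted p under 0.05) to 498 without single arrays. Centring on olive medians left 42.5% of the off-year calls higher, against 73.5%. The 78 differences between years became 5896 without adjustment, 887 at a mean of at least 6, 18036 (97.8% positive, against 23.1%) after centring on olive medians, and 0 to 173 without single arrays. The cause of these changes was not tested.

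With the replicate number as a block, 7 transcripts were called between the months, 183 in the on year, 85 in the off year and 10 between years. Deviations of same-numbered arrays correlated at 0.104 (OFF-M with OFF-J), 0.0987 (OFF-M with ON-J) and -0.0464 (OFF-J with ON-J). Over olive ESTs alone these were -0.0335, 0.192 and -0.254. The numbers were not taken to pair the arrays, though so few correlations cannot settle this.

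Of the 42 named transcripts called, 6 stayed called with the block and 36 did not, and all 42 kept their direction under every alternative in which they were tested, which the lack of overlap between the months largely fixes. With 3 November and 4 July arrays and ON-M held by 1 array, the counts carry wide uncertainty, and transcripts below the random control (5.20 to 5.27) have differences limited by background.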
